A study of Arabidopsis thaliana with 12 samples.

Results

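The HD-ZIP III transcription factors (class III of the homeodomain proteins with a leucine zipper) and their inhibitors, the little zipper (ZPR) proteins, were followed through RNA-seq of Arabidopsis thaliana root tips. The set was fixed by gene identifier and holds 9 of the 32833 genes in the table. It comprises the 5 HD-ZIP III genes PHABULOSA (PHB, AT2G34710), PHAVOLUTA (PHV, AT1G30490), REVOLUTA (REV, AT5G60690), CORONA (CNA, AT1G52150) and ATHB8 (AT4G32880), and the 4 little zipper genes ZPR1 (AT2G45450), ZPR2 (AT3G60890), ZPR3 (AT3G52770) and ZPR4 (AT2G36307). The 12 libraries fall into 4 groups of 3 biological replicates: wild-type Col-0 and the AGO10 mutant ago10-1, each as mock and 2 h after the synthetic cytokinin 6-benzylaminopurine (BAP). Seedlings were 6 days past germination, the BAP spray held 1 µM, and the study's methods describe the mock plants as left untreated. The RNA libraries hold 1 mutant allele of AGO10, ago10-1. The labels give 1 mm root tips and the methods a cut 1 to 3 mm above the tip, so each library pools the tips of several roots and all tissues of that stretch. Since 1 replicate heading stands over a pair of the Col-0 mock columns, these are called library A and library B.

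HD-ZIP III proteins bind DNA as dimers through a homeodomain next to a leucine zipper. In the root they act mainly in the stele, where they are known for their part in xylem patterning and in the control of vascular cell divisions. Their mRNAs are cut by AGO1 loaded with the microRNAs miR165 and miR166, which move from the endodermis into the stele. AGO10 binds the same microRNAs, keeps them from AGO1 and favours their turnover. A ZPR protein holds a leucine zipper but no DNA-binding domain and pairs with HD-ZIP III proteins into dimers that do not bind DNA. ZPR genes are themselves raised by HD-ZIP III proteins, which closes a negative feedback loop.

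The site that miR165 and miR166 recognize sets the HD-ZIP III genes apart from the ZPR genes, and its sequence is shown because the regulation by AGO10 runs through it. The mature microRNAs were read from the RefSeq annotation of the TAIR10.1 assembly, with the seed, bases 2 to 8, in capitals:
miR166: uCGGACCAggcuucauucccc
miR165: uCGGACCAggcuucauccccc
The 7 MIR166 loci give the same mature sequence and so do the 2 MIR165 loci. The microRNAs differ by U17C, counted from the 5′ end of miR166, and share the seed. The matching sites in the HD-ZIP III mRNAs are printed 5′ to 3′, with capitals for each base that is not the Watson-Crick partner of the miR166 base facing it:
PHB: UUggGaugaagccugguccgG
PHV: UUggGaugaagccugguccgG
REV: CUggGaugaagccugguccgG
ATHB8: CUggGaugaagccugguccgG
CNA: CUggaaugaagccugguccgG
The 5 sites were identical at 19 of 21 positions. PHB and PHV shared their site base for base, and so did REV and ATHB8. The CNA site had 3 mismatches to miR166 and the others 4, while against miR165 the CNA site had 4 and the others 3. Wobble pairs (G facing U) are counted as mismatches here and in the scan below. They made up 1 of the mismatches to miR166 in CNA and 2 in each of the other sites. Of 27440 protein-coding genes scanned, with 1 transcript each, CNA alone held a match to miR166 with 3 or fewer mismatches, and 11 genes, the 5 HD-ZIP III genes among them, held 1 with 4 or fewer. The best match in a ZPR transcript had 9 mismatches in ZPR1, ZPR2 and ZPR4 and 10 in ZPR3.

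Each HD-ZIP III site lies in coding sequence and is split by an intron after its 11th base, on the TAIR10.1 coordinates. It spans exons 4 and 5 of PHB at chr2:14642530-14642666 on the minus strand, of PHV at chr1:10799330-10799445 on the minus strand, of REV at chr5:24398787-24398898 on the plus strand and of CNA at chr1:19412976-19413085 on the minus strand. In ATHB8 it spans exons 5 and 6 at chr4:15866872-15866974 on the minus strand. The ZPR genes are short: ZPR1 lies at chr2:18733275-18734341, ZPR2 at chr3:22496875-22498099, ZPR3 at chr3:19557516-19559323 and ZPR4 at chr2:15218040-15219415, all on the minus strand, and RefSeq annotates ZPR4 as a non-coding RNA. The 3′ end of REV overlaps AT5G60700 on the opposite strand, and since strand use in the counting is not given in the sources used here, reads of that overlap cannot be told apart. The files hold no small RNA, so the microRNAs themselves were not measured.

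Reads on genes ran from 19394256 to 34899796 per library, with a median of 23987382. The mutant label was checked by AGO10 mRNA. Its normalized counts (reads divided by the library's size factor) were 1040, 696 and 914 in Col-0 mock and 568, 926 and 1051 in Col-0 BAP, against 187, 175 and 138 in ago10-1 mock and 130, 175 and 167 in ago10-1 BAP. The groups did not overlap, and AGO10 fell by 2.39 on the log2 scale over both treatments (SE 0.16, limma adjusted p = 3.48e-05). AGO1, the main slicer of the same microRNAs, ranged from 4603 to 6190 normalized counts in Col-0 and from 4895 to 5713 in ago10-1. The 8 lists of root and shoot markers (37 genes) had no gene at 0 in all libraries. Summed normalized counts of the young stele markers ran from 5494 to 6974 in Col-0 and from 5465 to 7306 in ago10-1. Those of the stem cell niche ran from 561 to 990 and from 768 to 1202. Every young stele marker was detected in every library. The young stele sum reflects mainly WOL, at 3305 to 5845 over the 12 libraries, while AHP6 was at 19 to 76. Green shoot markers summed to 242 to 3217 in Col-0 and 458 to 2245 in ago10-1. The libraries numbered replicate 1 deviated from their group means in a like way across the 4 groups, which is taken up with the members below. Within Col-0 mock, however, replicate 1 was nearest to library A, with a chi-square per gene of 24.7 between them. Library B gave 44.3 against library A and 50.5 against replicate 1.

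Of the 9 genes, 8 averaged 10 or more normalized counts over the 12 libraries, the filter used for testing. ZPR2 did not: it had 6 reads in all, 1 each in Col-0 mock replicate 1, Col-0 mock library B and ago10-1 mock replicate 2, and 3 in Col-0 BAP replicate 2. No difference in ZPR2 was detectable at this depth, and it was not tested. ZPR3 was thinly covered, with 10 to 49 reads per library, whereas ZPR1 had 66 to 244, ZPR4 71 to 131 and every HD-ZIP III gene at least 328.

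To compare genes, levels were divided by the length of their exons. REV was highest, at 353 ± 60.2 normalized counts per kb (SD, n = 12 libraries), followed by PHB at 325 ± 40.3, CNA at 291 ± 54.2 and ATHB8 at 245 ± 19.2. PHV lay lower, at 150 ± 23.0, next to ZPR1 at 154 ± 34.5 and ZPR4 at 151 ± 47.0, and ZPR3 lay at 29.0 ± 11.5. The ranges over the 12 libraries overlapped between all neighbours in this order except PHV and ZPR3: the lowest PHV library had 122 normalized counts per kb and the highest ZPR3 library 47.8. ATHB8 at its lowest, 210 per kb, was above PHV at its highest, 185 per kb, so PHV stood below the other HD-ZIP III genes in every library. ATHB8, which marks procambial cells, was the steadiest: its SD over the 12 libraries was 0.11 on the log2 scale, and 10.6% of the 6527 genes within 2-fold of its mean had a smaller SD. The median SD over all genes tested was 0.27.

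**Figure D1:**
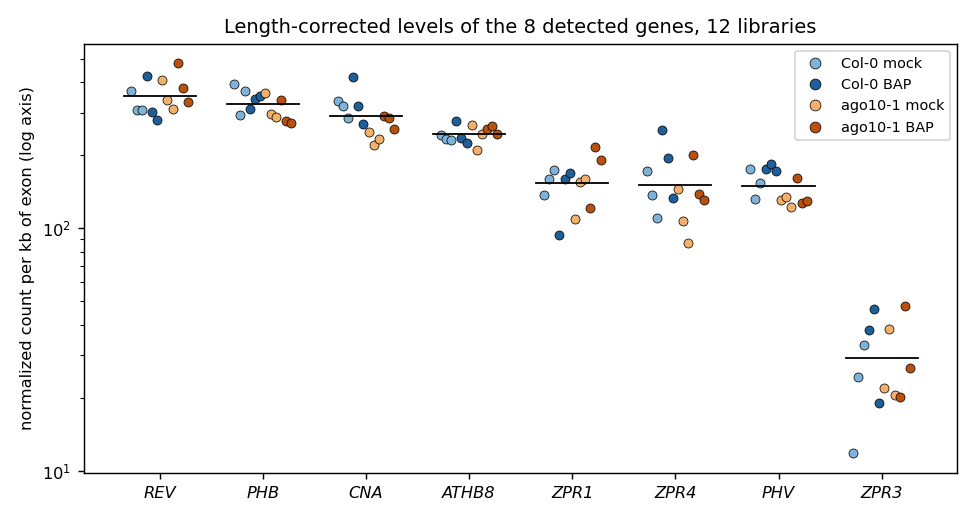
Levels of the 8 detected genes as normalized counts per kb of exon (log axis), ordered by their mean over 12 libraries (black line), with each library as a point coloured by group. REV, PHB, CNA and ATHB8 averaged 353 to 245 per kb, ZPR1, ZPR4 and PHV 154 to 150, and ZPR3 29.0.

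The HD-ZIP III mRNA pool of a root tip was thus shared mainly by REV, PHB, CNA and ATHB8. In Col-0 mock, per kb of exon, PHB made up 25.4% ± 2.39 of the summed HD-ZIP III level (SD, n = 3), REV 23.7% ± 0.84, CNA 22.7% ± 1.90, ATHB8 17.1% ± 1.13 and PHV 11.1% ± 0.70. In ago10-1 mock the REV share was 27.7% ± 1.58 and the CNA share 18.5% ± 0.96. The REV share in Col-0 mock ran from 22.8% to 24.4% and in ago10-1 mock from 25.9% to 28.9%, and the CNA share from 21.2% to 24.8% and from 17.6% to 19.5%, so these ranges did not overlap, while those of PHB, PHV and ATHB8 did. After BAP the REV share did not overlap, at 21.6% to 26.3% in Col-0 and 26.8% to 31.3% in ago10-1, nor did the PHV share, at 10.9% to 13.4% and 9.55% to 10.6%, while the shares of PHB, CNA and ATHB8 overlapped. Of all genes tested, 9.24% without BAP and 3.69% after BAP had a ratio to the summed HD-ZIP III level that did not overlap between genotypes. Unlike most of those genes, the members are part of the sum, so a lower share of 1 member raises the shares of the others. The REV levels themselves overlapped between genotypes in both treatments. The summed level itself overlapped between genotypes, with 1383 ± 121 normalized counts per kb in Col-0 mock and 1273 ± 125 in ago10-1 mock.

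The comparison of ago10-1 with Col-0 asks what loss of AGO10 does to the mRNAs it is held to protect. CNA, which acts with PHB and PHV in meristem and vascular patterning, was lower in ago10-1, PHV was lower over both treatments, and the other members did not pass the test. A gene was called at an unadjusted limma p under 0.01, and no member passed an adjusted p of 0.05 by limma in any comparison. That stricter rule called 0.0156% of all genes without BAP, 0.0417% over both treatments, 0.00521% for BAP over both genotypes and 0 genes in the other 4 comparisons.

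CNA had 1210, 1155 and 1035 normalized counts in Col-0 mock and 903, 801 and 850 in ago10-1 mock. Every mutant library lay below every wild-type library. The log2 fold change was -0.41 (SE 0.11, 95% interval -0.66 to -0.16), with an unadjusted p = 0.0052 and an adjusted p = 0.999 by limma. CNA was the only member of 8 called in this comparison, in which 0.437% of 19206 genes were called, 0.13% as lower, and 3.08% had mutant libraries all below the wild type. The call was lost without Col-0 mock replicate 1 (-0.36), Col-0 mock library A (-0.40), ago10-1 mock replicate 2 (-0.37) or ago10-1 mock replicate 3 (-0.41).

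After BAP the CNA counts were 1530, 1156 and 973 in Col-0 and 1056, 1030 and 929 in ago10-1. Here the groups overlapped, with Col-0 BAP replicate 1 far above the rest, and the log2 fold change of -0.26 (SE 0.19, 95% interval -0.70 to 0.19) was not called. Without that library it was -0.08. The difference between the mutant's effect with and without BAP was itself not called, at 0.16 on the log2 scale (95% interval -0.31 to 0.63, limma unadjusted p = 0.481). Over both treatments CNA was at -0.33 (SE 0.10, unadjusted p = 0.0074, adjusted p = 0.999).

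PHV, a close paralogue of PHB known mainly for the upper side of leaves, had its larger fitted difference after BAP. Without BAP its counts were 539, 406 and 475 in Col-0 and 401, 414 and 376 in ago10-1, which overlapped, and the log2 fold change was -0.24 (SE 0.14, limma unadjusted p = 0.119). After BAP they were 542, 569 and 529 in Col-0 and 497, 392 and 398 in ago10-1, with every mutant library below every wild-type library, as in 1.62% of all genes. The log2 fold change after BAP was -0.36 (SE 0.15, 95% interval -0.72 to 0.01) with a limma unadjusted p = 0.0534, which is not a call. The difference between the mutant's effects after and without BAP was -0.11 (95% interval -0.54 to 0.31) and was not called either. Over both treatments PHV was at -0.30 (SE 0.093, unadjusted p = 0.0070, adjusted p = 0.999).

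CNA and PHV were thus the 2 members of 8 called over both treatments, both as lower, where 0.802% of all genes were called and 0.234% as lower. Both calls were kept by edgeR and DESeq2 on the recovered reads. A replicate block, replicate 1 against the others, kept them too (SE 0.081 each, limma unadjusted p = 0.00146 for CNA and 0.00289 for PHV). It also kept the call of CNA without BAP (limma unadjusted p = 0.00256). With the block no member passed an adjusted p of 0.05. Calls over all genes and both treatments rose from 154 to 365. The CNA and PHV calls over both treatments were lost with scaling to total reads (CNA -0.31, PHV -0.28). They were also lost without replicate 1 of every group (CNA -0.26, PHV -0.31). The call of CNA without BAP was lost in both cases too (-0.38 and -0.41). Leaving out single libraries moved CNA between -0.41 and -0.26 and PHV between -0.35 and -0.26, and the call was then lost in 8 of 12 cases for CNA and in 9 of 12 for PHV. CNA kept its call without Col-0 mock library B, Col-0 BAP replicate 2, Col-0 BAP replicate 3 or ago10-1 BAP replicate 1, and PHV without Col-0 mock library A, ago10-1 mock replicate 2 or ago10-1 BAP replicate 1. In bulk root tips, fewer cells that express a gene and less RNA per cell cannot be told apart.

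**Figure D2:**
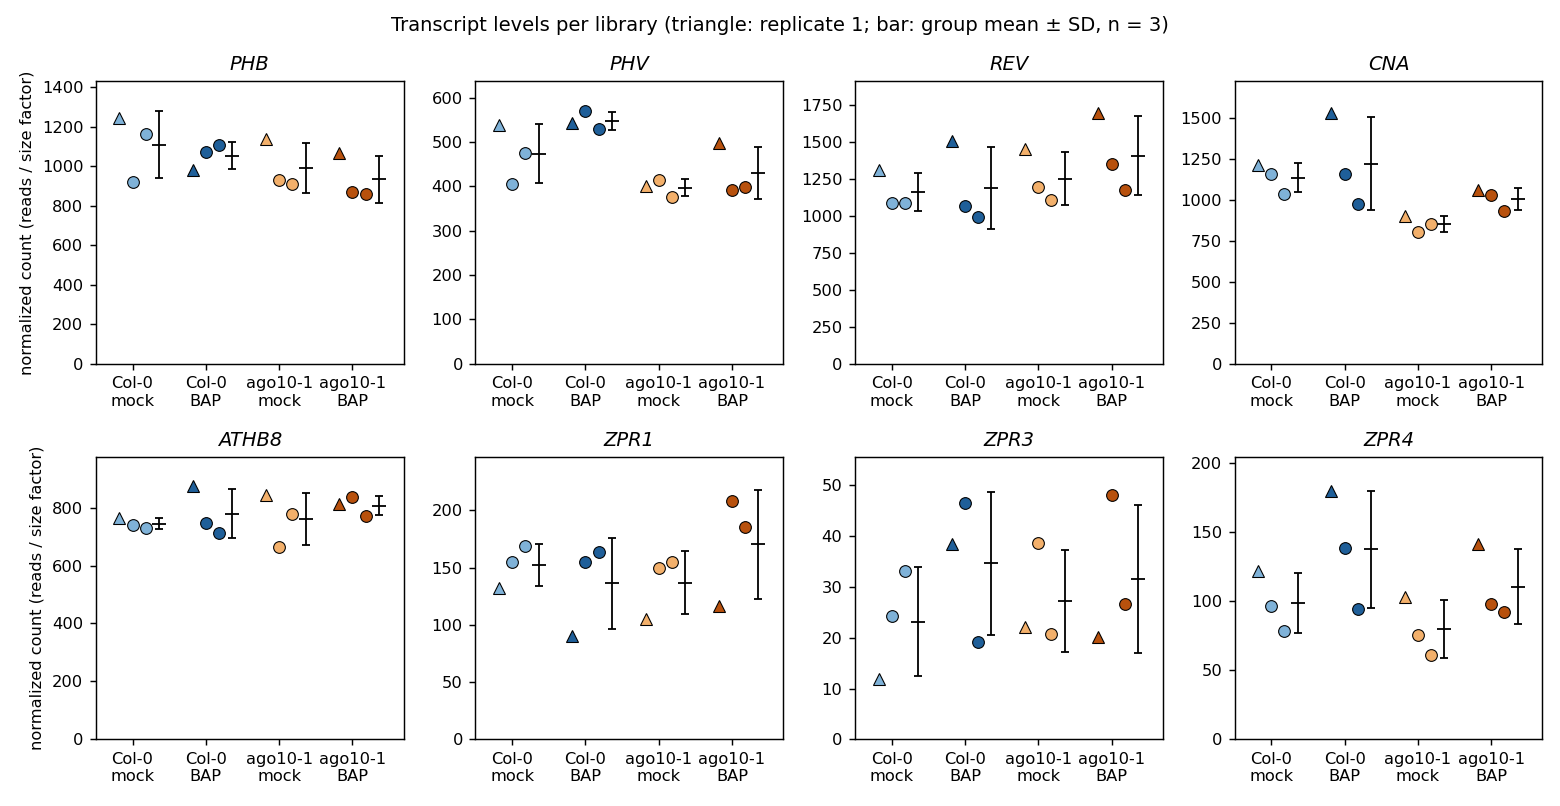
Normalized counts of the 8 detected genes in each library by group, with replicate 1 as a triangle and the group mean ± SD (n = 3) beside the points. CNA in ago10-1 mock (801 to 903) lies below Col-0 mock (1035 to 1210), and replicate 1 has the highest REV and ZPR4 and the lowest ZPR1 count in every group.

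PHB and REV, the best studied HD-ZIP III genes of the root, were not called. PHB had 1244, 920 and 1163 normalized counts in Col-0 mock, 1135, 929 and 909 in ago10-1 mock, 980, 1071 and 1109 in Col-0 BAP and 1068, 870 and 859 in ago10-1 BAP. These ranges overlapped throughout, and the log2 fold change over both treatments was -0.17 (95% interval -0.38 to 0.04). REV had 1312, 1086 and 1087 in Col-0 mock, 1452, 1196 and 1103 in ago10-1 mock, 1502, 1066 and 993 in Col-0 BAP and 1697, 1348 and 1173 in ago10-1 BAP. REV was the sole HD-ZIP III gene besides ATHB8 with a mean above the wild type in both treatments, at 0.18 on the log2 scale (SE 0.13, 95% interval -0.10 to 0.45, limma unadjusted p = 0.19). With the replicate block, replicate 1 against the others, the SE of REV was 0.065 and its limma unadjusted p = 0.0189, which is no call. Over both treatments 4 members (PHV, CNA, REV and ZPR4) in place of 2 then had an unadjusted p under 0.05. The number over all 19206 genes rose likewise, from 594 to 1298. ATHB8 counts ran from 714 to 876 in Col-0 and from 663 to 843 in ago10-1, and its difference was 0.04 (95% interval -0.13 to 0.21). A rise of ATHB8 beyond 0.21 thus lay outside its interval over both treatments, and one of REV beyond 0.45 without the block. After BAP alone the intervals reached 0.38 for ATHB8 and 0.76 for REV.

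The little zipper genes did not pass the test between genotypes. ZPR1 had 132, 155 and 169 normalized counts in Col-0 mock, 105, 150 and 155 in ago10-1 mock, 90, 155 and 164 in Col-0 BAP and 117, 208 and 186 in ago10-1 BAP. These ranges overlapped in both treatments, and over both the log2 fold change was 0.08 (95% interval -0.37 to 0.53). ZPR4 was at -0.30 (95% interval -0.74 to 0.14) and ZPR3 at 0.07 (95% interval -0.67 to 0.82). The intervals of the ZPR genes were wider than those of the HD-ZIP III genes. After BAP, where 0.13% of all genes were called between genotypes, 0 of 8 members were called by limma, edgeR or DESeq2. At an unadjusted p under 0.05 limma had 0 members, edgeR 1 and DESeq2 0, against 111, 122 and 133 of all 19206 genes.

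**Figure D3:**
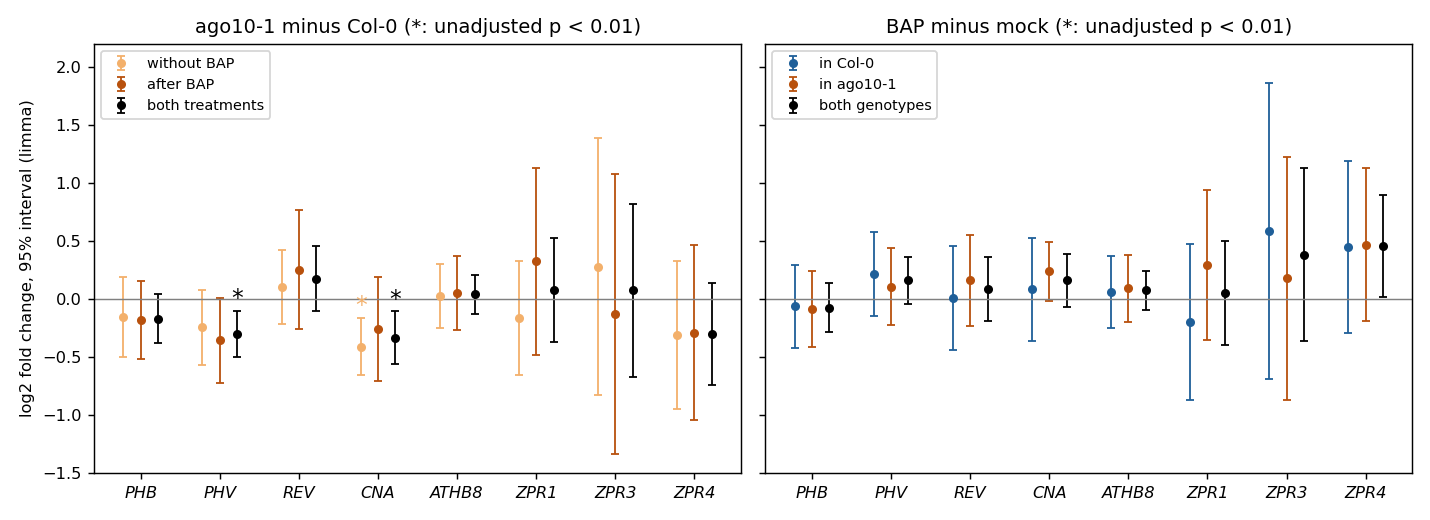
Log2 fold changes with 95% intervals (limma) of the 8 tested genes, for ago10-1 minus Col-0 on the left and BAP minus mock on the right, with an asterisk at an unadjusted p under 0.01. CNA without BAP (-0.41) and CNA (-0.33) and PHV (-0.30) over both treatments carry asterisks, and no BAP difference does.

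Ratios of HD-ZIP III genes within a library do not depend on the library's size factor. Over both treatments 3 of 10 pairs had ratios that did not overlap between genotypes, while the level of every HD-ZIP III gene overlapped. What made the ratios differ from the levels in this was not tested. The ratios were looked at after the levels had been seen and are given as a description. CNA over REV was 0.92, 1.06 and 0.95 in Col-0 mock and 1.02, 1.08 and 0.98 in Col-0 BAP. In ago10-1 the ratio was 0.62, 0.67 and 0.77 in mock and 0.62, 0.76 and 0.79 after BAP. All 6 mutant libraries thus lay below all 6 wild-type libraries, and the mean log2 ratio was 0.51 lower.

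PHV over REV ran from 0.36 to 0.53 in Col-0 (median 0.42) and from 0.28 to 0.35 in ago10-1 (median 0.32), and CNA over ATHB8 from 1.36 to 1.75 (median 1.55) and from 1.07 to 1.298 (median 1.21). These 3 of the 10 pairs of HD-ZIP III genes had ratios that did not overlap between genotypes. Over all other genes, 0.292% had a ratio to REV that did not overlap, 0.266% to ATHB8, 0.536% to PHB, 1.83% to PHV and 4.68% to CNA. PHB over REV, with medians of 0.98 in Col-0 and 0.75 in ago10-1, overlapped only through Col-0 BAP replicate 1 (0.65).

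**Figure D4:**
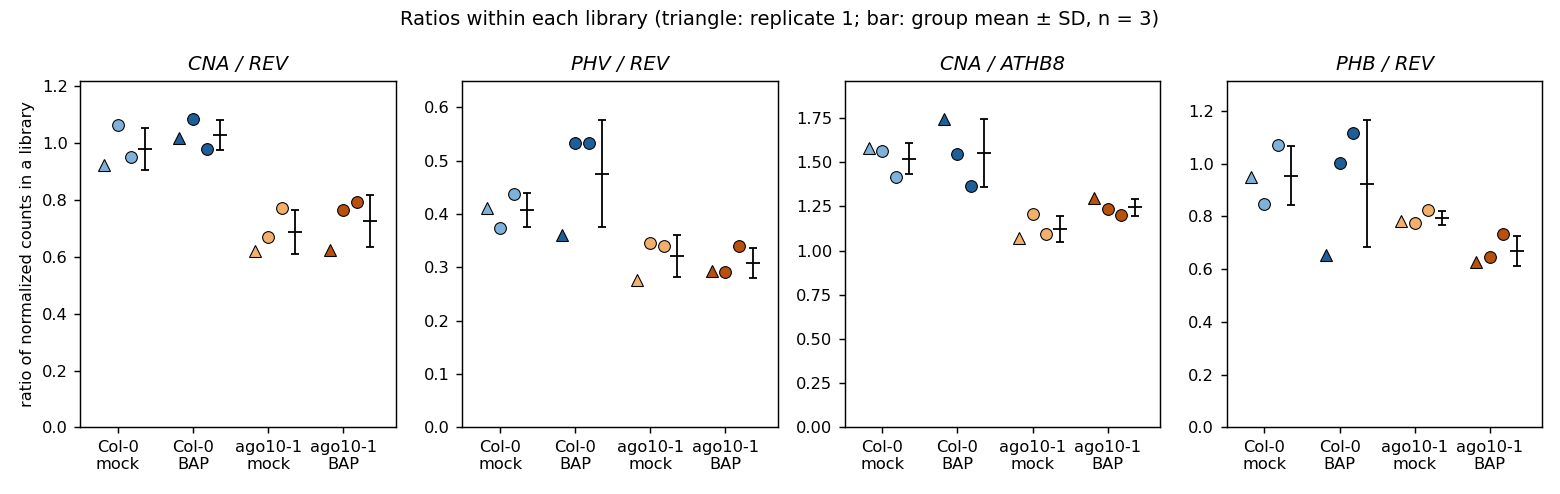
Ratios of normalized counts within each library by group, with replicate 1 as a triangle and the group mean ± SD (n = 3) beside the points. CNA over REV lies at 0.92 to 1.08 in the 6 Col-0 libraries and at 0.62 to 0.79 in the 6 ago10-1 libraries, while PHB over REV overlaps.

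The values can be set beside the microRNA sites printed above. PHB and PHV have the same site, with differences of -0.17 and -0.30 over both treatments, and their log2 ratio of PHB over PHV differed by 0.13 between genotypes, with overlapping libraries. REV and ATHB8 also share a site, and both had higher means in ago10-1 than in Col-0 without a call. CNA differs from them at a single position of the site.

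Markers of several tissues leaned one way with genotype beside these results. All 6 markers of maturing xylem were positive in ago10-1 over both treatments, with a median log2 fold change of 0.41 where all genes had 0.01, and their sum ran from 4824 to 14148 in Col-0 and from 6903 to 16330 in ago10-1. All 4 green shoot markers were positive too (median 0.52), all 4 root cap markers negative (median -0.18), and 4 of 5 young stele markers positive (median 0.22). The 3 stem cell niche markers (median 0.25) and the 5 endodermis markers (median 0.16) were positive, the 5 root hair markers negative (median -0.12), and the 5 of dividing cells split 2 to 3 (median -0.05). None of the 37 was called by limma, edgeR or DESeq2. Each tool had 1, of the xylem list, at an unadjusted p under 0.05, against 594, 568 and 688 of all 19206 genes. By limma that was XCP1, a protease of xylem vessels, at 0.64 (SE 0.27, unadjusted p = 0.0326). Their part in the CNA and PHV differences was not tested.

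The BAP comparison asks whether the set responds to a short cytokinin treatment, since cytokinin and HD-ZIP III activity are linked in the stele. No member was called in Col-0, where 0.151% of all genes were, in ago10-1, where 0.568% were, or over both genotypes, where 1.48% were. By edgeR and DESeq2 there were 0 calls as well. At an unadjusted p under 0.05 each of the 3 tools had 1 member, ZPR4, over both genotypes only. Of all 19206 genes, limma had 1211 there, edgeR 1322 and DESeq2 1607.

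ZPR4 had 122, 97 and 78 normalized counts in Col-0 mock and 179, 138 and 95 in Col-0 BAP, and 103, 76 and 61 in ago10-1 mock and 142, 98 and 92 in ago10-1 BAP. In both genotypes replicate 1 was the highest library of each group, and replicate 1 with BAP was above replicate 1 without it. The groups still overlapped, in Col-0 also because BAP replicate 3 (95) was below mock library A (97). The log2 fold change was 0.45 (SE 0.31) in Col-0, 0.47 (SE 0.28) in ago10-1 and 0.46 (SE 0.20, unadjusted p = 0.0425, adjusted p = 0.779) over both. With the replicate block, replicate 1 against the others, ZPR4 passed the call (SE 0.13, limma unadjusted p = 0.0040, adjusted p = 0.224), where 3.36% of all genes did.

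Among the HD-ZIP III genes, CNA in ago10-1 was nearest to a change after BAP, at 0.24 on the log2 scale (SE 0.11, limma unadjusted p = 0.0629), and its 3 libraries with BAP lay above the 3 without, as in 4.61% of all genes. In Col-0 the same difference was 0.08 (SE 0.19), with overlapping groups. PHV was at 0.16 over both genotypes (95% interval -0.04 to 0.36), REV at 0.09 (95% interval -0.19 to 0.36), ATHB8 at 0.08 (95% interval -0.09 to 0.25) and PHB at -0.08 (95% interval -0.29 to 0.13). CNA was at 0.16 (95% interval -0.06 to 0.39), so a rise of any HD-ZIP III gene beyond 0.39 lay outside these pooled intervals. Within a genotype the intervals reached further, up to 0.58 for PHV in Col-0 and 0.56 for REV in ago10-1. The ZPR genes left more room: ZPR1 was at 0.05 (95% interval -0.40 to 0.50) and ZPR3, with 12, 24 and 33 normalized counts in Col-0 mock and 38, 46 and 19 in Col-0 BAP, at 0.38 (95% interval -0.36 to 1.13).

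The BAP effect did not differ detectably between genotypes for any member. In the interaction test 0.0208% of all genes were called and 0 of 8 members, with 0 at an unadjusted p under 0.05 by limma, edgeR and DESeq2. The largest member values were 0.49 for ZPR1 (95% interval -0.40 to 1.38) and -0.41 for ZPR3 (95% interval -1.96 to 1.15).

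Replicate 1 differed from the other libraries in REV, ZPR1 and ZPR4. In a fit of all 12 libraries with genotype, treatment and replicate 1 as terms, chosen after the data were seen, 3 of the 8 members passed an adjusted p of 0.05, and so did 36.4% of all genes, so the number of members is near the background. REV was higher in replicate 1 by 0.40 on the log2 scale (SE 0.069, limma adjusted p = 0.0021), and replicate 1 held the highest REV count of each group, 1312, 1502, 1452 and 1697. ZPR4 was higher by 0.57 (SE 0.14, limma adjusted p = 0.0086). ZPR1 was lower in replicate 1, with a difference of -0.59 (SE 0.13, limma adjusted p = 0.0069), and its replicate 1 library was the lowest of each group.

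All 5 HD-ZIP III genes were positive in replicate 1, with CNA at 0.23 (limma adjusted p = 0.055), PHB at 0.18, PHV at 0.16 and ATHB8 at 0.14 short of the threshold, and ZPR3 was at -0.50 (SE 0.34). ZPR1 and ZPR4 thus lay on opposite sides. All 6 maturing xylem markers were higher in replicate 1 at an adjusted p under 0.05, by 0.59 (VND7) to 1.05 (XCP2) on the log2 scale. Of all genes, 36.4% passed this threshold as higher or lower. In the other marker lists the same threshold was passed by 2 of 5 endodermis markers as higher (CASP1 1.13, CASP2 0.87) and 1 as lower (ESB1 -0.87), and by 2 of 4 green shoot markers as higher (RCA 1.66, PSBR 1.497). It was passed by WOX5 (1.21) as higher and PLT1 (-0.43) as lower of 3 stem cell niche markers, by 1 of 5 young stele markers as higher (TMO5 0.92), by 2 of 5 markers of dividing cells as lower (CYCB1;1 -0.47, CDKB1;1 -0.46), by 1 of 4 root cap markers as lower (FEZ -0.72) and by 0 of 5 root hair markers. The part of these tissues in the replicate 1 differences was not tested, and what set replicate 1 apart is not given in the sources used here.

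**Figure D5:**
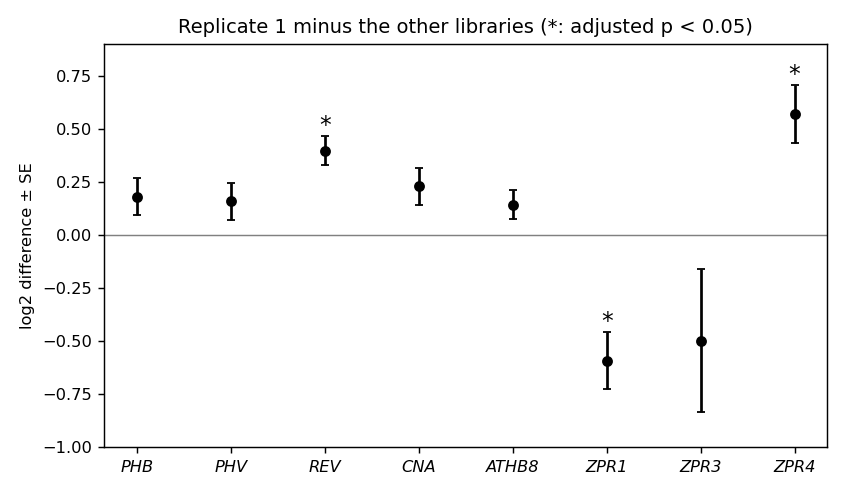
Log2 difference of replicate 1 from the other libraries with its SE, from a limma fit of 12 libraries with genotype and treatment as terms, for the 8 tested genes, with an asterisk at an adjusted p under 0.05. REV (0.40) and ZPR4 (0.57) are higher in replicate 1 and ZPR1 (-0.59) is lower.

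The members' variation over the 12 libraries, treated as a description since genotype, treatment and replicate are mixed in it, did not tie the family together. On log2 normalized counts, CNA went with ZPR4 (Pearson r = 0.82), REV with ATHB8 (r = 0.71), PHV with ZPR4 (r = 0.70), and PHB and CNA each with PHV (r = 0.65 and 0.66). REV and PHB were nearly unrelated (r = 0.08), as were PHV and ATHB8 (r = -0.00). ZPR1 ran against ZPR4 (r = -0.60) and against REV (r = -0.63).

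Of the 16836 other genes that averaged 50 or more normalized counts, those most like REV were UBC8, a ubiquitin-conjugating enzyme (r = 0.96), MAKR4, a membrane-associated kinase regulator (r = 0.95), and AT2G24240 (r = 0.95). The genes most like ATHB8 were TED6, a membrane protein of differentiating xylem vessels (r = 0.89), AT1G45150 (r = 0.87) and AT3G49070 (r = 0.87). NAC075 (r = 0.85), a NAC transcription factor, NS2 (r = 0.84) and AT3G04480 (r = 0.84) were most like PHV, and AT3G55060 (r = 0.88), TBL36 (r = 0.86) and AT3G63270 (r = 0.83) most like PHB.

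For CNA they were ENODL9, an early nodulin-like protein (r = 0.91), AT5G59660 (r = 0.89) and AT5G46530 (r = 0.89). For ZPR1 they were AT5G39800 (r = 0.93), AT4G25315 (r = 0.91) and LYK2 (r = 0.91), and for ZPR4 AT5G43930 (r = 0.92), ATH13 (r = 0.92) and the cold-induced LTI78 (r = 0.91). No member was among the 3 genes most like another.

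The neighbours of the set in the pathway gave few differences. Of 9 genes of microRNA production, loading and turnover, all measured, AGO10 was the only one called between genotypes, and AGO1 was at 5888 ± 348 normalized counts in Col-0 mock and 5363 ± 422 in ago10-1 mock (SD, n = 3). Of the 9 MIR165 and MIR166 loci, MIR166B alone passed the filter, with 35 to 69 normalized counts in Col-0 and 26 to 60 in ago10-1. MIR166C, MIR166D, MIR166F and MIR166G were at 0 in every library, which for hairpin transcripts in these libraries says nothing of the mature microRNAs.

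Of 11 genes reported as targets of HD-ZIP III proteins, 7 were positive and 4 negative in ago10-1 over both treatments, with a median of 0.06 and 0 called by limma, edgeR or DESeq2. At an unadjusted p under 0.05 there were 1 by limma, 2 by edgeR and 2 by DESeq2, against 594, 568 and 688 of all 19206 genes. The limma gene, named after its value was seen, was ACL5, the thermospermine synthase of xylem vessels, at 0.36 (SE 0.13, limma unadjusted p = 0.0163). ACL5 had 541, 391 and 395 normalized counts in Col-0 mock and 677, 545 and 475 in ago10-1 mock, which overlapped.

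In the replicate 1 fit 2 of these 11 were higher, IPT7, a cytokinin synthesis gene, by 2.71 and ACL5 by 0.30. IPT7 was low, with 0 to 61 normalized counts per library and a mean of 19.4, so the size of its difference is uncertain. Lower were 3, the auxin synthesis gene TAA1 at -0.52 and the HD-ZIP II genes ATHB4 at -1.18 and HAT3 at -0.35. All passed a limma adjusted p of 0.05, as did 36.4% of all genes, so their number is near the background. The 6 PEAR DOF factors, whose action in the early phloem HD-ZIP III proteins oppose, had 5 negative values in ago10-1 (median -0.22) and the 3 measured KANADI genes, which act against HD-ZIP III genes in organ polarity, 3 (median -0.09). None of either list was called by limma, and at an unadjusted p under 0.05 limma had 0 of each list, edgeR and DESeq2 1 of the PEAR list.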

How the data were processed

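Root tip RNA was sequenced in 12 libraries. Per the methods, the authors used STAR for alignment, featureCounts with a TAIR10 annotation for counting and DESeq2 for normalization. The deposited signal is thus the read count of a gene divided by a size factor of its library. Dividing each column by its smallest step gave whole reads for 100% of values (tolerance 1e-06), on which edgeR and DESeq2 were run as alternatives. The main test was limma-trend 3.58.1 (R 4.3.3, two-sided) on log2(normalized count + 1) for the 19206 genes that averaged 10 or more, which understates fold changes of low genes. Each pairwise comparison used its 6 libraries, and the pooled comparisons and the interaction all 12. Calls were at an unadjusted p under 0.01, and Benjamini-Hochberg adjusted p-values cover all genes tested. edgeR was 4.0.16 and DESeq2 1.42.0. The scripts were tested on simulated data.

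Same-numbered libraries deviated together from their group means in all 12 pairs (r from 0.25 to 0.78, above the limit of 0.1). Replicate numbers were therefore used as a pairing in alternative fits with a replicate block. The main fits held no replicate term, because the methods state no pairing, so their values and calls are unpaired. The pairing was clear for replicate 1 (r from 0.55 to 0.78, against -0.72 to -0.22 with other numbers), but not for replicates 2 and 3, whose same-numbered pairs (0.25 to 0.45) did not stand apart from pairs of 2 with 3 (0.02 to 0.66). Since a Col-0 mock pair lacks distinct numbers, the block set replicate 1 against the others, and the full number was used in 2 comparisons. Replicates differed by more than sampling noise (chi-square per gene 14.0 to 180).

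The members, lists and call rule were chosen with earlier results of these data known. The text names all 9 members, AGO10, AGO1, list genes called in a comparison and the 3 genes most like each member with a mean of at least 50. Listed gene coordinates equalled those of TAIR10.1 in 458 of 458 cases. Sequences came from RefSeq. Alternatives were other pseudocounts (10 and 0.5), no filter, total-read scaling, the block, 1 fit of 12 libraries, calls at an adjusted p under 0.05, leaving out libraries and, chosen after seeing the data, within-library ratios and a replicate 1 term.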

Additional observations from a re-analysis of the deposited data

How the results depend on the processing

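Of 8 members, 1 was called between genotypes without BAP and 2 over both treatments. Scaling to total reads on genes gave 0 and 0, leaving out replicate 1 of every group 0 and 0, and a call at an adjusted p under 0.05 gave 0 and 0. A single fit of all 12 libraries gave 0 without BAP. Leaving out each library in turn gave 0 to 1 without BAP and 0 to 2 over both treatments. With the replicate block, 1 member (ZPR4) was called for BAP over both genotypes instead of 0, and the block changed no other call of a member. Pseudocounts, the filter, edgeR and DESeq2 changed no member's call. Of 1032 alternative values for the 56 single differences, 49 in 22 differences changed sign, none of them called under either setting.

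The number of genes called over the whole table moved more. For BAP it was 29 in Col-0 (9 to 138 over the alternatives), 109 in ago10-1 (28 to 979) and 285 over both genotypes (164 to 646). Between genotypes it was 84 without BAP (46 to 181), 25 after BAP (6 to 138) and 154 over both treatments (96 to 365), and for the interaction 4 (4 to 51). The highest count came with the replicate block for BAP in ago10-1 and for both pooled comparisons. With 3 libraries a group and 10 to 49 reads, ZPR3 limits what can be said of it.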
